A study of Mus musculus with 4 samples.

Results

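The 9 heterochromatin genes described here were followed across the 4 RNA-seq libraries of the series. They were chosen by name and comprise *Lbr*, the 3 genes of heterochromatin protein 1 (HP1), *Cbx1*, *Cbx3*, and *Cbx5*, and 5 genes for histone H3 lysine 9 (H3K9) methyltransferases, *Ehmt1*, *Ehmt2*, *Setdb1*, *Suv39h1*, and *Suv39h2*. All 9 of these genes were among the 24421 genes with deposited values, and all 9 were among the 16917 genes that reached at least 1 TPM (a transcript level divided by transcript length and scaled to the same sum in each library) in at least 1 library. Chromatin itself was not measured in these libraries, so the values are transcript levels of the machinery and not of the marks it makes.

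In the main olfactory epithelium (MOE), each olfactory sensory neuron (OSN) expresses a single receptor gene, and the large clusters of odorant receptor (*OR*) genes that it does not use are packed into heterochromatin with methylated H3K9. The HP1 proteins read methylated H3K9 through their chromodomains, and the methyltransferases write it. LBR, the lamin B receptor, is a protein of the inner nuclear membrane that binds HP1 and holds heterochromatin at the nuclear edge. It is known for being low in mature OSNs, whose receptor clusters gather in the nuclear interior, and for being abundant in leukocytes, where it shapes the lobed nucleus of neutrophils.

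The libraries came from sorted MOE cells of mice labelled C57BL/6 that carry a PiggyBac transgene in which a TAAR enhancer, a putative regulatory element of the trace amine-associated receptor (*Taar*) gene cluster, drives a fluorescent protein from the Hsp68 minimal promoter. The line with TAAR enhancer 1 carries GFP (TAAR enhancer 1-GFP, below the GFP line), and that with TAAR enhancer 2 carries tdTomato (TAAR enhancer 2-tdTomato, below the tdTomato line). Cells with and without reporter fluorescence were sorted from each, which gives 4 groups (GFP-negative, GFP-positive, tdTomato-negative, and tdTomato-positive) of 1 library each. Each enhancer is represented by a single transgenic line kept from several founders, and the number of mice behind a library is not stated. The labels describe adult mice, while the reporting summary of the study gives juvenile ages for both lines and a mixed strain background for its mouse lines in general. With 1 library per group no test was possible, no p-value was calculated, and every difference below is between 2 libraries without a replicate check.

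The libraries differed in make-up. TPM values have the same sum in every library, so the read depth is unknown. The 10 highest genes took up 31.5% of that sum in the GFP-positive library, compared with 5.72% to 9.44% elsewhere. Across the 16917 genes, the median difference between sorted fractions was -0.81 for the GFP line and -0.16 for the tdTomato line on the log2(TPM + 1) scale, and 0.016 between the 2 reporter-negative libraries (tdTomato-negative minus GFP-negative). Summed *Taar* TPM was 86.1 and 60.8 in the reporter-negative libraries and 804.1 and 3476 in the GFP-positive and tdTomato-positive libraries. The 12 markers of mature OSNs summed to 27841 and 28641 TPM in the reporter-negative libraries, to 3065 in GFP-positive cells, and to 12861 in tdTomato-positive cells.

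*Lbr* lies on chromosome 1 of the mouse genome (GRCm38, also called mm10) from 181815335 to 181843046 on the minus strand. The 250 bases before its RefSeq start and those before the start of *Suv39h1* are shown because these 2 genes were at least 2-fold lower in GFP-positive cells, as were 43.1% of all genes, and also lower in tdTomato-positive cells. Both stretches are on the minus strand, *Lbr* at chr1:181842402-181842651 and *Suv39h1* at chrX:8074761-8075010, and neither overlaps an exon of the gene it belongs to in the GENCODE M21 annotation, although the *Lbr* stretch lies inside the annotated span of *Lbr*. Capitals mark each CCAAT box, the core sequence bound by the factor NF-Y, which is written ATTGG where it lies on the other strand.
Lbr: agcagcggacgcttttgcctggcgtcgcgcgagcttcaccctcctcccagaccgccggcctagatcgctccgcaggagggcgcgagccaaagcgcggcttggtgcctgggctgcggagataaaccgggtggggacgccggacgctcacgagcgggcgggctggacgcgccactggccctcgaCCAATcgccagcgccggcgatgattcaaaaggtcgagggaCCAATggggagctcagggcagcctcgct
Suv39h1: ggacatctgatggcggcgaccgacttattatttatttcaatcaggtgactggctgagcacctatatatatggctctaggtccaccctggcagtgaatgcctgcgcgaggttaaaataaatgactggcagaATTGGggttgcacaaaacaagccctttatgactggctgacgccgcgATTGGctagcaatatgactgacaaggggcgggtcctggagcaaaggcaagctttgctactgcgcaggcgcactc
Each stretch held 2 CCAAT boxes, starting 68 and 28 bases before the start in *Lbr* and 120 and 74 bases before it in *Suv39h1*. A CCAAT box on either strand was present in 4 of the 9 promoters and in 34.5% of the first listed promoters of 27025 genes. No TAATTA, a core LHX motif, and no EBF motif was present on either strand of the 9 promoters, compared with 4.90% and 0.788% of all promoters. The cell cycle motif TTTGAA was present in 1 of the 9, *Lbr*, and in 16.3% of all, and the E2F motifs TTTCCCGC, TTTGGCGC, and TTTCGCGC were present in 1 of the 9, *Cbx3*, and in 1.59% of all. These matches describe letters and not binding. The *Lbr* stretch had 31 CpG dinucleotides and the *Suv39h1* stretch 11.

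The 9 genes covered a wide range of levels. *Cbx1* was highest in every library and *Suv39h2* was lowest. In GFP-negative cells the order was *Cbx1* (124.8 TPM), *Cbx3* (100.8 TPM), *Ehmt2* (55.9 TPM), *Lbr* (49.8 TPM), *Setdb1* (40.2 TPM), *Ehmt1* (34.8 TPM), *Suv39h1* (19.3 TPM), *Cbx5* (19.1 TPM), and *Suv39h2* (5.49 TPM). Over all 4 libraries *Lbr* had the widest span of ranks, at 4 in GFP-negative, 5 in GFP-positive, 6 in tdTomato-negative, and 7 in tdTomato-positive cells. Within each line *Cbx5* moved as far as *Lbr*, from rank 8 to 7 in the GFP line and from 7 to 6 in the tdTomato line. *Suv39h1* was just above *Cbx5* in GFP-negative cells and below it in the other libraries, and *Ehmt2* passed *Cbx3* in tdTomato-positive cells alone. Without replicates, the difference between the 2 reporter-negative libraries is the nearest available gauge of spread, although line, reporter, and sort differ between them. On the log2(TPM + 1) scale it was below 2-fold for all 9 genes, with *Suv39h2* nearest to it at -0.96, although the TPM of *Suv39h2* differed 2.35 times and its difference was -1.20 with a pseudocount of 0.1, which puts 1 of the 9 genes past 2-fold. On the log2(TPM + 1) scale the background was 10.7% of all genes at least 2-fold higher and 11.6% at least 2-fold lower in tdTomato-negative cells. With a pseudocount of 0.1 it was 12.8% higher and 13.5% lower.

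**Figure D1:**
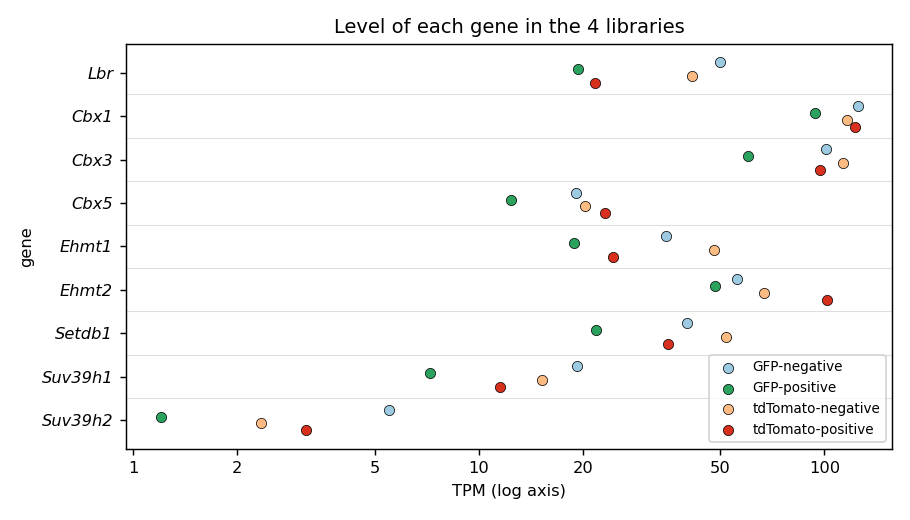
TPM of the 9 genes (vertical axis) in the 4 libraries on a log axis, with 1 point per library and no error bars, since each group has 1 library. *Cbx1* sits highest and *Suv39h2* lowest in each library, and both reporter-positive points of *Lbr* lie left of both reporter-negative points.

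*Lbr* was lower in both reporter-positive libraries. It was 49.8 TPM in GFP-negative against 19.3 TPM in GFP-positive cells, with 41.5 TPM in tdTomato-negative against 21.7 TPM in tdTomato-positive cells. Both reporter-positive values were below both reporter-negative values, as in 41.4% of all genes, by 2.58 times within the GFP line and 1.92 times within the tdTomato line. The log2(TPM + 1) differences were -1.32 and -0.91, while the reporter-negative libraries differed by -0.26. In each line *Lbr* was also below the median of all genes, by 0.51 and 0.74 on the log2 scale, and the share of all genes with a lower difference was 31.0% and 23.5%. In the GFP line the difference was -0.47 after median-ratio scaling of the libraries and turned to 1.67 after scaling to the mature OSN markers, which also turned it to 0.079 in the tdTomato line, so its direction depends on the scale. In sorted bulk RNA, fewer cells of a type that express a gene and less of its RNA per cell cannot be told apart.

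Leukocyte markers were lower in the same direction as *Lbr*. The 8 lymphocyte markers summed to 947.3 TPM in GFP-negative and 572.0 TPM in tdTomato-negative cells, and to 5.11 and 4.82 TPM in GFP-positive and tdTomato-positive cells. In each line all 8 were at least 2-fold lower, and among them *Cd79b*, a chain of the B cell receptor complex, was 256.5 TPM in GFP-negative cells. Of the 9 neutrophil markers measured, 8 in the GFP line and 7 in the tdTomato line were at least 2-fold lower with the reporter, against 43.1% and 21.6% of all genes. In the latter, *Elane* was listed at 0 in both fractions and *Ltf* was 496.0 TPM without and 286.2 TPM with the reporter. *S100a9* was 3215 TPM in GFP-negative, 996.6 TPM in tdTomato-negative, 33.8 TPM in GFP-positive, and 2.59 TPM in tdTomato-positive cells. *Ltf*, which glands also express, was the exception in the GFP line, at 665.3 TPM without and 1691 TPM with GFP. The 6 macrophage markers, led by *C1qb*, summed to 853.4 and 231.0 TPM in the GFP-negative and tdTomato-negative libraries and to 74.7 and 73.2 TPM in the reporter-positive ones. The part of these cells in the *Lbr* values was not tested.

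**Figure D2:**
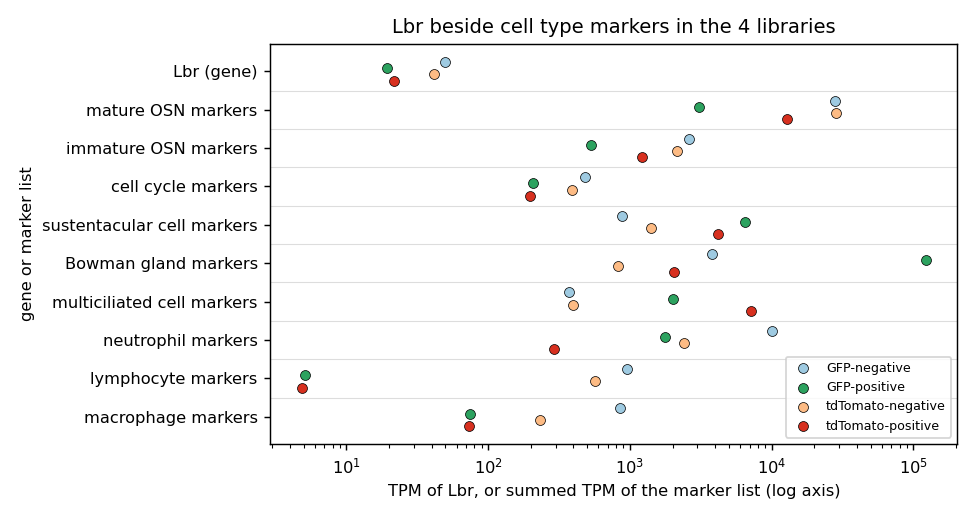
TPM of *Lbr* and summed TPM of 9 marker lists (vertical axis) in the 4 libraries on a log axis, 1 point per library. *Lbr*, OSN, cell cycle, and leukocyte markers lie lower in both reporter-positive libraries, with lymphocyte markers at 5.11 and 4.82 TPM, while multiciliated cell markers and, in the tdTomato line through *Cyp2a5*, the sustentacular sum lie higher.

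Markers of multiciliated cells were higher in both reporter-positive libraries, and those of other supporting cells were higher in the GFP line and mixed in the tdTomato line. The 10 markers of multiciliated cells summed to 371.3 and 399.2 TPM in the GFP-negative and tdTomato-negative libraries and to 2021 and 7140 TPM in GFP-positive and tdTomato-positive cells. The sum of 8 Bowman gland markers was 123243 TPM in GFP-positive cells, most of it from *Bpifb9b* and *Obp2a*, against 3790 TPM in GFP-negative cells, and it was 827.0 TPM without and 2037 TPM with tdTomato. All 8 were at least 2-fold higher in the GFP line, whereas in the tdTomato line 4 were at least 2-fold higher and 4 at least 2-fold lower, *Bpifb9b* being 149.6 and 1354 TPM and *Obp2a* 86.6 and 0.58 TPM. The 9 sustentacular cell markers, led by *Cyp2a5*, summed to 885.8 and 1402 TPM in the reporter-negative libraries and to 6502 and 4180 TPM in the reporter-positive ones. All 9 were at least 2-fold higher in the GFP line, but 4 were at least 2-fold higher and 2 at least 2-fold lower in the tdTomato line, where *Cyp2a5* alone was 745.2 TPM without and 3572 TPM with the reporter. Of all genes, 13.5% were at least 2-fold higher in the GFP line, and 16.0% were higher and 21.6% lower in the tdTomato line. All differences of the 9 heterochromatin genes are between fractions with these different mixtures, and the part of the mixture in them was not tested.

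A piece of the *Lbr* sequence is not unique to it. Among the 50-base windows in its protein-coding transcripts, 411 of 4090 also occur in a transcript of another annotated gene, almost all of them in a retained-intron transcript of *Dnah14*. *Dnah14* is not listed in the deposited values.

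None of the HP1 genes was 2-fold apart between fractions, where 43.1% of all genes were lower and 13.5% higher in the GFP line and 21.6% lower and 16.0% higher in the tdTomato line. *Cbx1*, which encodes HP1 beta and lies on chromosome 11 from 96789127 to 96808640 on the plus strand, was 124.8 TPM in GFP-negative against 93.9 TPM in GFP-positive cells, with 116.1 TPM in tdTomato-negative against 122.5 TPM in tdTomato-positive cells. GFP-positive cells were lowest, and the other libraries lay close together. The log2(TPM + 1) difference of *Cbx1* was -0.41 in the GFP line and 0.076 in the tdTomato line.

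*Cbx3*, which encodes HP1 gamma, the HP1 protein most often found along active genes, lies on chromosome 6 from 51470360 to 51483704 on the plus strand. It was 100.8 TPM in GFP-negative against 60.2 TPM in GFP-positive cells, with 113.4 TPM in tdTomato-negative against 97.3 TPM in tdTomato-positive cells. Both reporter-positive values were below both reporter-negative ones, narrowly so in the tdTomato line, where the log2(TPM + 1) difference was -0.22 against -0.74 in the GFP line. Of the 50-base windows of *Cbx3*, 24.8% also occur in other genes, 13 of which are processed pseudogenes, so its value depends on how shared reads were assigned. Of its 532 shared windows, 509 occur in the noncoding RNA gene *Gm49164* and 211 in the protein-coding gene *Als2cr12*. *Als2cr12* is listed in the deposited values, at 0 TPM in the reporter-negative libraries and at 1.58 and 1.65 TPM in the GFP-positive and tdTomato-positive libraries. No pseudogene named after *Cbx3* is listed in the deposited values.

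*Cbx5*, which encodes HP1 alpha and is the HP1 gene most tied to pericentromeric heterochromatin, lies on chromosome 15 from 103191544 to 103239816 on the minus strand. It was 19.1 TPM in GFP-negative against 12.4 TPM in GFP-positive cells, with 20.3 TPM in tdTomato-negative against 23.1 TPM in tdTomato-positive cells. It was therefore lowest in GFP-positive cells and highest in tdTomato-positive cells, with log2(TPM + 1) differences of -0.58 and 0.18. Summed over the 3 HP1 genes, TPM was 244.7 in GFP-negative, 249.9 in tdTomato-negative, and 242.9 in tdTomato-positive cells, and it was lower, at 166.5, in GFP-positive cells.

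The proportions of the HP1 genes, which do not depend on how a library is scaled, were similar everywhere. *Cbx1* made up 51.0% and 46.5% of HP1 TPM in the GFP-negative and tdTomato-negative libraries and 56.4% and 50.4% in the GFP-positive and tdTomato-positive libraries. *Cbx3* made up 41.2% and 45.4% in the reporter-negative libraries and 36.1% and 40.1% in the reporter-positive ones, lower by 1.14 times within one line and 1.13 times within the other. *Cbx5* stayed between 7.45% and 9.53%.

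Set against the HP1 genes, *Lbr* was lower in both lines. The ratio of *Lbr* to the sum of the 3 HP1 genes was 0.204 in GFP-negative and 0.116 in GFP-positive cells, and 0.166 in tdTomato-negative and 0.0892 in tdTomato-positive cells. It was lower by 1.76 times and 1.86 times within the lines, compared with 1.23 times between the reporter-negative libraries. This ratio is the same under every scaling of the libraries. Relative to the median of all genes, *Cbx1* (0.41 and 0.24) and *Cbx5* (0.23 and 0.34) were higher in both lines, and *Cbx3* was close to it. A lower ratio to the HP1 genes is therefore not particular to *Lbr*, and the share of all genes with a lower ratio was not calculated.

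The methyltransferases of the G9a complex moved apart from each other. *Ehmt2* encodes G9a, and *Ehmt1* encodes its partner GLP, and the proteins act as a heterodimer that adds methyl groups to H3K9. *Ehmt2*, on chromosome 17 from 34898469 to 34914052 on the plus strand, was 55.9 TPM in GFP-negative against 48.1 TPM in GFP-positive cells, with 66.9 TPM in tdTomato-negative against 101.5 TPM in tdTomato-positive cells. *Ehmt1*, on chromosome 2 from 24789928 to 24919614 on the minus strand, was 34.8 TPM in GFP-negative against 18.8 TPM in GFP-positive cells, with 48.0 TPM in tdTomato-negative against 24.5 TPM in tdTomato-positive cells. *Ehmt1* was lower in both reporter-positive libraries, by log2(TPM + 1) differences of -0.85 and -0.94, whereas *Ehmt2* differed by -0.21 in the GFP line and 0.59 in the tdTomato line. Relative to the median of all genes *Ehmt2* was higher in both lines, by 0.60 and 0.76. After median-ratio scaling, *Ehmt2* was 0.66 and 0.75 and *Ehmt1* -0.00038 and -0.79, and with the scaling to mature OSN markers *Ehmt1* turned to 2.13 and 0.051.

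The 2 subunits were in a different ratio in the reporter-positive libraries. *Ehmt2* transcripts were 1.61 times as abundant as *Ehmt1* transcripts in GFP-negative cells and 2.56 times in GFP-positive cells. The ratio was 1.39 in tdTomato-negative against 4.14 in tdTomato-positive cells. It was higher by 1.59 times and 2.97 times within the lines, while the reporter-negative libraries differed by 1.15 times. No 50-base window of either gene is shared with another annotated gene, and the ratio is the same under every scaling of the libraries. *Ehmt2* made up 35.9% and 36.3% of the summed TPM of the 5 methyltransferases in the GFP-negative and tdTomato-negative libraries, and 49.5% and 57.7% in the GFP-positive and tdTomato-positive libraries.

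**Figure D3:**
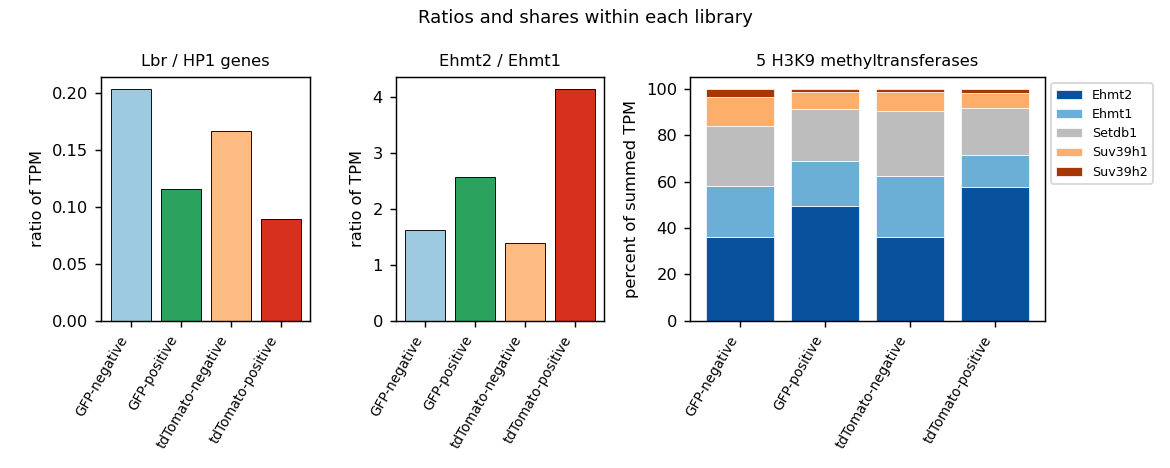
Left and centre, the ratio of *Lbr* TPM to the summed TPM of the HP1 genes and the ratio of *Ehmt2* to *Ehmt1* TPM in each library, and right, the percent of the summed TPM of 5 methyltransferases held by each gene, where every bar is 1 library and starts at 0. The *Lbr* ratio is 0.204 against 0.116 and 0.166 against 0.0892, and the *Ehmt2* share is 49.5% and 57.7% in the reporter-positive libraries.

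*Setdb1* encodes the methyltransferase that zinc finger proteins recruit through TRIM28, and it lies on chromosome 3 from 95323525 to 95357202 on the minus strand. It was 40.2 TPM in GFP-negative against 21.8 TPM in GFP-positive cells, with 52.0 TPM in tdTomato-negative against 35.3 TPM in tdTomato-positive cells. Both reporter-positive values were below both reporter-negative values, with log2(TPM + 1) differences of -0.85 and -0.55, the first close to the median of all genes in that line.

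The SUV39H enzymes trimethylate H3K9 at pericentromeric repeats. *Suv39h1*, on chromosome X from 8061171 to 8074760 on the minus strand, was 19.3 TPM in GFP-negative against 7.21 TPM in GFP-positive cells, with 15.2 TPM in tdTomato-negative against 11.5 TPM in tdTomato-positive cells. It was lower in both reporter-positive libraries, with log2(TPM + 1) differences of -1.31 and -0.37, which turned to 1.57 and 0.56 with the scaling to mature OSN markers. Of its 50-base windows 13.1% are shared with other genes, most of them with the antisense gene *Gm14820*, and the sources used here do not state whether strand was used in the counting.

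*Suv39h2*, on chromosome 2 from 3455815 to 3475031 on the minus strand, had the lowest values and the least stable ones. It was 5.49 TPM in GFP-negative against 1.20 TPM in GFP-positive cells, with 2.33 TPM in tdTomato-negative against 3.16 TPM in tdTomato-positive cells. GFP-negative cells were highest and GFP-positive cells lowest, with both tdTomato libraries between them. The log2(TPM + 1) difference was -1.56 in the GFP line and 0.32 in the tdTomato line, and the reporter-negative libraries alone differed by -0.96. The first value was 0.70 with the scaling to mature OSN markers. *Suv39h1* exceeded *Suv39h2* in every library, by 3.51 and 6.50 times in the GFP-negative and tdTomato-negative libraries and by 6.01 and 3.64 times in the GFP-positive and tdTomato-positive libraries.

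Counted over the 9 genes, 3 were at least 2-fold lower in GFP-positive cells (*Lbr*, *Suv39h1*, and *Suv39h2*) and none was at least 2-fold higher. The background in this line was 43.1% of all genes at least 2-fold lower and 13.5% at least 2-fold higher. In the tdTomato line none of the 9 was at least 2-fold apart in either direction, with a background of 21.6% lower and 16.0% higher. The median difference of the 9 genes was -0.85 in the GFP line and -0.22 in the tdTomato line, close to the medians of all genes. Both reporter-positive values were below both reporter-negative values for 5 of the 9 genes (*Lbr*, *Cbx3*, *Ehmt1*, *Setdb1*, and *Suv39h1*), which is also true of 41.4% of all genes, and the opposite held for none of the 9 and for 14.1% of all genes. The directions depend on the scale: with median-ratio scaling 4 were below and 5 above 0 in the GFP line, where 20.8% of all genes were at least 2-fold lower and 20.8% higher. With the scaling to mature OSN markers all 9 were above 0 in both lines (0.70 to 2.82 and 0.051 to 1.59), with 7.42% of all genes lower and 75.2% higher in the GFP line and 11.8% and 34.9% in the tdTomato line. Relative to the median of all genes, *Lbr* (-0.51 and -0.74) and *Suv39h1* (-0.49 and -0.21) were lower in both lines, *Ehmt1* (-0.037 and -0.78) and *Setdb1* (-0.037 and -0.38) were close to it in one line and below it in the other, and *Ehmt2* (0.60 and 0.76), *Cbx1* (0.41 and 0.24), and *Cbx5* (0.23 and 0.34) were higher in both. *Cbx3* was close to the median in both lines (0.079 and -0.055).

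**Figure D4:**
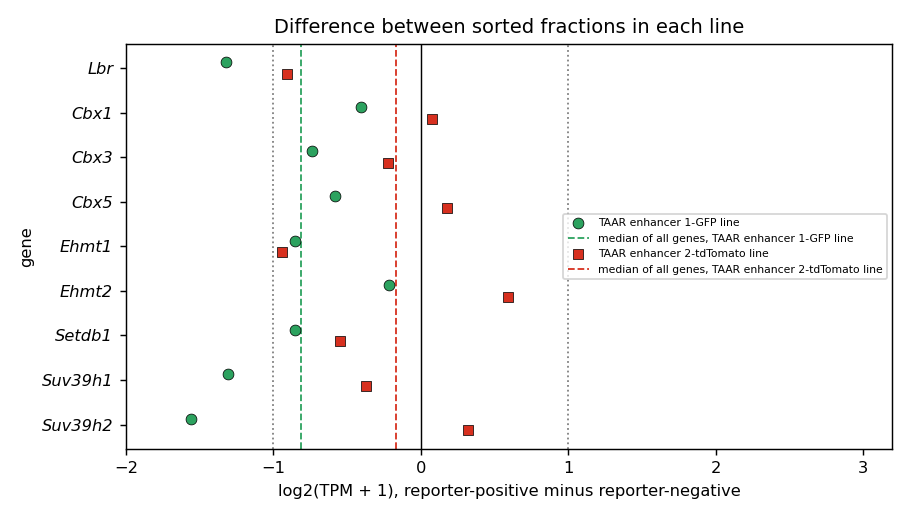
Difference in log2(TPM + 1) between reporter-positive and reporter-negative cells (horizontal axis) for the 9 genes, with circles for the GFP line and squares for the tdTomato line; dashed lines are the medians of all genes (-0.81 and -0.16) and dotted lines mark 2-fold. *Lbr*, *Suv39h1*, and *Suv39h2* lie beyond 2-fold in the GFP line, and no gene does in the other line.

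The genes with the most similar pattern to each gene were found by Euclidean distance over the 4 libraries, after the mean log2(TPM + 1) of each gene had been subtracted, among 11031 genes with a mean of at least 10 TPM. For *Lbr* they were *Bzw2*, *Lrch1*, and *Nop2*, at distances of 0.066, 0.073, and 0.082. For *Ehmt2* they were *Taf1a*, *Nab1*, and *Vezf1* (0.040, 0.059, and 0.061), and for *Ehmt1* they were *1110038F14Rik*, *Brms1l*, and *Osbpl1a* (0.032, 0.079, and 0.082). The nearest of the 9 genes to *Lbr* was *Suv39h1*, at 0.42, and the nearest to *Ehmt1* was *Setdb1*, at 0.30. With 4 libraries many genes share a pattern closely, and these distances are a description.

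The partners of these proteins were described with lists of related genes, whose counts stand against 43.1% of all genes at least 2-fold lower in the GFP line and 21.6% in the tdTomato line. Of 11 measured partners of the H3K9 methyltransferases, all 11 were at least 2-fold lower in GFP-positive cells, with a median of -1.50, and 1 was at least 2-fold lower in tdTomato-positive cells, with a median of -0.41. *Setdb2*, a relative of *Setdb1*, was lowest in both lines at -2.24 and -1.15, and *Mphosph8*, which reads methylated H3K9 in the HUSH silencing complex, was highest at -1.14 and 0.56. Of 11 partners of HP1, 10 and 3 were at least 2-fold lower, with medians of -1.43 and -0.59. In the GFP line the highest of these was the chromatin assembly subunit *Chaf1b* (-0.036) and the lowest was *Sp100* (-1.92), while *Chaf1b* was lowest (-2.44, listed at 0 in tdTomato-positive cells) and *Lrif1* highest (0.057) in the tdTomato line. For comparison, the medians of all genes were -0.81 and -0.16, and a different scaling of the libraries moves a list and these medians together.

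The enzymes that remove H3K9 methylation form the opposing group. Of 12 demethylase genes and cofactors, 8 in the GFP line and 3 in the tdTomato line were at least 2-fold lower, against 43.1% and 21.6% of all genes, with medians of -1.33 and -0.45. *Phf8* (-2.03) and *Rcor1* (-1.37), a partner of the demethylase LSD1, were the lowest, and *Kdm4d* (-0.37) and *Kdm4c* (0.14) the highest, in the GFP and tdTomato lines, respectively. The 3 H4K20 methyltransferases, which make a second mark of silent receptor clusters, had medians of -1.48 and -0.69. *Setd8* was lowest in the GFP line (-1.62) and *Suv420h2* in the tdTomato line (-1.13), and *Suv420h1* was highest in both (-0.96 and -0.23).

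The other proteins of the nuclear edge were described in the same way. Of 14 genes of the nuclear lamina and inner nuclear membrane, 8 were at least 2-fold lower in GFP-positive cells and none was at least 2-fold higher, while 2 were lower and 2 higher in tdTomato-positive cells, with medians of -1.22 and -0.66. The shares of all genes were 43.1% lower and 13.5% higher in the GFP line and 21.6% lower and 16.0% higher in the tdTomato line. *Lmnb1*, the B-type lamin to which LBR binds, was lowest in the tdTomato line, at 78.4 TPM without and 14.5 TPM with the reporter (-2.36). *Lmna*, the A-type lamin gene, was highest in the GFP line, at 27.0 TPM without and 40.7 TPM with the reporter (0.57), where *Nrm* was lowest (-2.36). *Syne1*, a large linker between nucleus and cytoskeleton, was highest in the tdTomato line, at 7.74 and 93.4 TPM (3.43).

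LBR also carries a sterol reductase domain. Of 5 sterol synthesis genes, none was at least 2-fold apart in the GFP line (median -0.51, from *Cyp51* at -0.80 to *Msmo1* at -0.041), and 1, *Msmo1*, was at least 2-fold higher in tdTomato-positive cells (1.32), where *Tm7sf2*, the nearest relative of the LBR domain, was lowest (-0.75) and the median was -0.48. Of 11 DNA methylation genes, 8 and 1 were at least 2-fold lower (43.1% and 21.6% of all genes), with medians of -1.18 and -0.46, *Tet1* lowest in both lines (-2.37 and -1.64), and *Mbd3* highest in the GFP line (-0.22). Of 12 Polycomb genes, which keep a separate system of silencing on H3K27, 9 and 2 were at least 2-fold lower, against the same shares of all genes, and 0 and 1 higher, against 13.5% and 16.0%, with medians of -1.40 and -0.26. *Cbx8* (-2.72) and *Ezh2* (-1.34) were the lowest, and *Cbx6* was highest in both (-0.68 and 1.10).

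**Figure D5:**
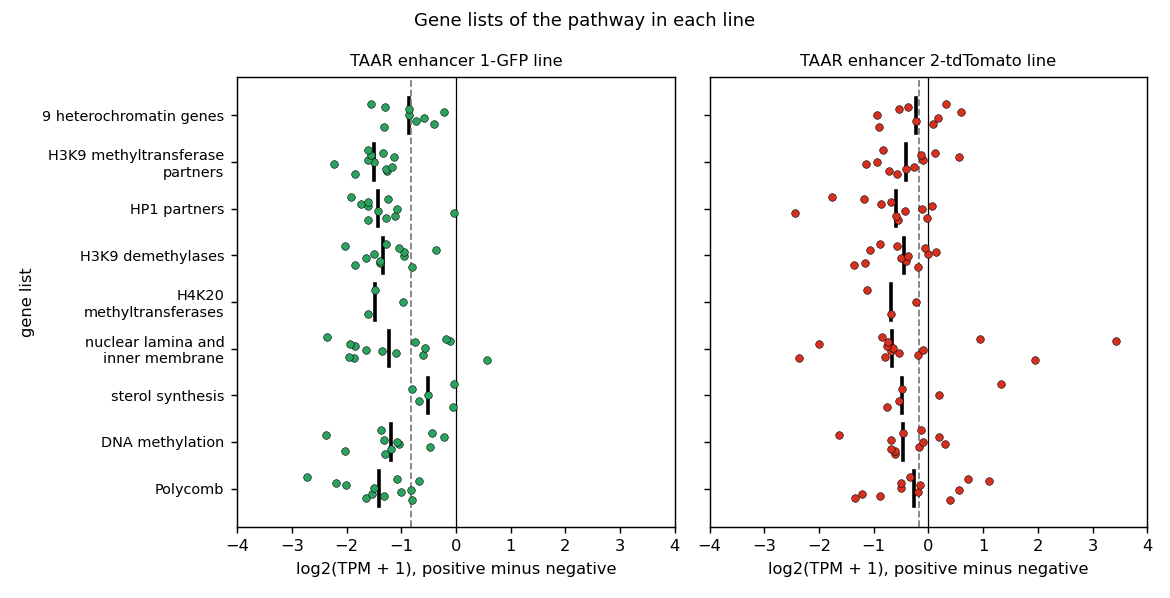
Difference in log2(TPM + 1) between reporter-positive and reporter-negative cells for each gene of the lists (points, 1 per gene), with the median of each list as a black bar and the median of all genes as a dashed line, in the GFP line (left) and the tdTomato line (right). The 9 heterochromatin genes have medians of -0.85 and -0.22, and the partner lists lie further left, at -1.50 and -0.41 for the methyltransferase partners.

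Cell cycle genes are given because heterochromatin factors are also used in dividing cells. *Mki67* was 30.5 TPM in GFP-negative against 7.90 TPM in GFP-positive cells, with 23.5 TPM in tdTomato-negative against 1.56 TPM in tdTomato-positive cells. Of the 12 cell cycle markers, led by *Pcna*, 7 were at least 2-fold lower in each line, against 43.1% of all genes in the GFP line and 21.6% in the tdTomato line. In the GFP line 2 were above 0, 1 of them at least 2-fold higher, against 13.5% of all genes, and 3 were above 0 in the tdTomato line. The 12 markers summed to 482.8 and 392.8 TPM in the reporter-negative libraries, most of it *Pcna* (259.8 and 231.7 TPM), and to 208.5 and 198.8 TPM in the reporter-positive ones. *Lbr*, *Cbx3*, *Ehmt1*, *Setdb1*, and *Suv39h1* had both reporter-positive values below both reporter-negative values, as did 41.4% of all genes. The part of dividing cells in these values was not tested. Markers of immature OSNs, led by *Tubb3*, were lower too, with summed TPM of 2616 and 2163 against 530.8 and 1223. Markers of horizontal basal cells did not move with *Lbr* in both lines, since the 5 horizontal basal cell markers, led by *Krt15*, summed to 63.0 and 629.2 TPM in the GFP-negative and GFP-positive libraries and to 151.6 and 29.1 TPM in the tdTomato-negative and tdTomato-positive libraries. The 8 markers of globose basal cells and precursors summed to 601.7, 275.2, 514.0, and 441.4 TPM in the GFP-negative, GFP-positive, tdTomato-negative, and tdTomato-positive libraries. Most of the first sum was *Lhx2* (416.3 TPM), and 4 of the 8 were above 0 in the GFP line and 2 in the tdTomato line, with medians of 0.19 and -0.96. In the same order, the 5 microvillar cell markers, led by *Ascl3*, summed to 35.6, 240.3, 231.2, and 228.1 TPM. *Omp*, the marker of mature OSNs, was 9584 and 10108 TPM in the reporter-negative libraries and 1108 and 4427 TPM in the reporter-positive ones.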

How the data were processed

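RNA-seq values of 4 libraries were used as deposited. The authors deposited TPM, which have the same sum in each library. The submitters' processing notes name Trimmomatic 0.36 and Salmon 1.4.0 with the mm10 build, whereas the methods of the study name Hisat2, Cufflinks, and featureCounts, and the gene annotation and any gene filter are not given in the sources used here. Labels and methods also name different extraction and library kits. TPM keeps no depth, so no interval or detection limit was calculated.

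Differences were taken as log2(TPM + 1), which understates changes of low genes, and a gene was called at 2-fold. The 16917 genes that reached 1 TPM somewhere gave the background. There is 1 library per group, so no test was run. The calculation was tested on simulated libraries.

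The 9 genes and the gene lists were chosen with earlier results of these data known. Named genes are the 9, the highest and lowest of each pathway list in each line, *Omp*, *Mki67*, the highest gene of each marker list, and the 3 genes most like each of the 9 (*Suv39h2*, under the mean of 10 TPM required, was not compared), of which only those of *Lbr*, *Ehmt1*, and *Ehmt2* are printed. Of the genes this rule names, 1 is not reported here. *Cd79b*, *S100a9*, *Lmnb1*, *Elane*, *Ltf*, *Obp2a*, and the genes that share sequence were named after their values were seen where this rule does not name them. Of the listed genes, *Zfp274* and *Ly6g* are not in the values, and H4K20 methyltransferases carry older symbols.

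Positions and shared windows (50 bases, both strands) are from GENCODE M21, and promoters are from RefSeq (GRCm38.p6), which matched all 9 genes. Alternatives were pseudocounts of 0.1 and 10, other minimum TPM values, a 1.5-fold call, and 3 scalings of the libraries: the median ratio over 11943 genes that reached 1 TPM everywhere, rescaling without the 10 highest genes of any library, and setting the mean log2(TPM) of 12 markers of mature OSNs equal. Python 3.11.15, NumPy 2.4.6, pandas 2.3.3, and Matplotlib 3.10.9 were used.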

Additional observations from a re-analysis of the deposited data

Results flagged for a closer look

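Of the 9 genes, 4 were lower in GFP-positive cells and higher in tdTomato-positive cells, each relative to the reporter-negative cells of its line. With 1 library per group these differences between the lines were not tested. The second log2 difference exceeded the first by 1.88 for *Suv39h2* (-1.56 and 0.32), 0.81 for *Ehmt2* (-0.21 and 0.59), 0.76 for *Cbx5* (-0.58 and 0.18), and 0.48 for *Cbx1* (-0.41 and 0.076). The medians of all genes were -0.81 and -0.16, and against these medians *Ehmt2*, *Cbx5*, and *Cbx1* were higher in both lines. Of these 4 genes, *Suv39h2* was on opposite sides of the medians, and its 4 values, from 1.20 to 5.49 TPM, were the lowest of the 9 genes.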

How the results depend on the processing

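No paired analysis was possible because each comparison within a line has 1 library on each side. The direction of *Lbr* against the median of all genes was the same with both other pseudocounts and with the 3 scalings (-0.28 to -0.58 in the TAAR enhancer 1-GFP line and -0.56 to -0.75 in the TAAR enhancer 2-tdTomato line), while its direction against 0 was not. A scaling moves *Lbr* and this median nearly together, so the 3 scalings could hardly change the first direction and are no check of it. In the following values the TAAR enhancer 1-GFP line is meant unless the other line is named, and the cause of each change was not tested. With a pseudocount of 10, 1 of the 9 genes was at least 2-fold lower, and 22.9% of all genes were lower and 5.86% higher (9.78% and 7.90% in the TAAR enhancer 2-tdTomato line). With median-ratio scaling, which moved the median of all genes by 0.79, *Lbr* was -0.47, the median of the 9 genes was 0.0044, 0 genes were lower, and 20.8% of all genes were lower and 20.8% higher. Without the highest genes, 1 was lower and 28.5% of all genes were lower. With scaling to mature OSN markers, which moved the median of all genes by 2.77, *Lbr* was 1.67, *Suv39h1* 1.57, and *Suv39h2* 0.70, the median of the 9 genes was 2.14, 0 were lower and 8 higher, and 7.42% of all genes were lower and 75.2% higher. In the TAAR enhancer 2-tdTomato line that scaling moved the median of all genes by 0.80 and gave 0.079 for *Lbr*, a median of 0.79, 3 genes higher, and 11.8% of all genes lower and 34.9% higher. With a 1.5-fold call 6 of the 9 genes were lower, and in the TAAR enhancer 2-tdTomato line 2 were lower and 1 higher. The share of all genes at 1.5-fold was not calculated, so these counts have no background to be read against. TPM gives no depth, so low values such as those of *Suv39h2* have no known precision.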
